A study of Arabidopsis thaliana with 18 samples.

Results

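A set of 73 probe sets was taken from petioles of Arabidopsis thaliana for a joint response to the light cues that a plant meets among neighbours. A probe set is the group of short probes by which an Affymetrix ATH1 array measures a transcript. A member had a mean at least 0.7 log2 units higher under low blue light joined with a low ratio of red to far-red (R:FR) light, called combined below, than under control light. All 3 of its combined arrays lay above all 3 control arrays, and low R:FR or low blue light by itself left its mean less than 0.5 above control light. Genes with symbols of the CYP, UGT, GST, XTH, EXLA and EXPA families, and HAT2, WES1, IAA29, EXO, AT1G69570 and AFR, were left out by name. The 73 members make up 0.321% of the 22746 probe sets that are not array controls. The platform's annotation gave a gene for 28 of them, of which 5 carry a symbol and 23 a locus name, several genes for 2, and no gene for 43. Members without a listed gene are counted but, except for a few, not named.

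In dense stands the leaves of neighbours absorb red and blue light and reflect far-red light. Phytochromes register the low R:FR and cryptochromes the low blue light, and both pathways act on transcription factors of the PIF family that drive the elongation of petioles, the leaf stalks. Auxin and brassinosteroids carry much of this growth response, and loosening of the cell wall allows the cells to extend.

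All plants were of accession Col-0, and 18 arrays fell into 6 groups of 3. In the light experiment, single plants were exposed for 24 h to combined treatment, low R:FR, low blue light or control light, and petioles were taken at 29 d. In the density experiment, petioles came from plants of 37 d in a canopy of 2066 plants per m2 or from single plants of the same age. There, 2 young petioles per plant were taken and 4 plants were pooled per replicate. Before treatment, seeds spent 3 d at 4 °C, seedlings were potted at 10 d, and the light of 180 µmol per m2 per s lasted 9 h a day, followed by 15 h of darkness, at 20 °C and 70% relative humidity. Whether the 3 replicates of a light group were separate pools of plants is not stated, so the spread there can be technical. By its title, the series asks how these light signals contribute to the response of petioles to crowding.

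The members were chosen by their values on the 12 light arrays, so every difference among the light groups below is a description with no test. The 6 density arrays took no part in the choice, and canopy against single plants is the comparison that was tested. Its standard errors rest on a spread shared by all 6 groups, so a technical spread in the light groups would enter them. Values are the deposited expression values, read as log2 although their base is not stated, and those after ± are SDs over 3 arrays for levels and limma standard errors for differences.

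Array medians over all probe sets were alike, from 1.59 to 1.65, and no arrays held identical values. Control light replicates 1 and 3 correlated least within a group (r = 0.9781 over all probe sets), against 0.9856 to 0.9939 for the other pairs. Without control replicate 3 the rule gave 80 probe sets, of which 45 were among the 73, so the membership depends on single arrays. Of the cell type markers listed for leaf blade mesophyll, epidermis, guard cells, phloem, xylem, roots and trichomes, 7 of 35 had a named probe set. RCA, the Rubisco activase of green tissue, lay between 10.8 and 11.2 on every array. The guard cell lineage genes FMA, SPCH and MUTE, the phloem sugar exporter SWEET11 and the trichome gene TRY lay near the floor of the arrays. No marker of epidermis or xylem was named, and petioles have no defining marker among them. In such bulk samples fewer cells of a type and less RNA per cell cannot be told apart.

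Over the 73 members the median difference of combined from control light was 0.82, with a range from 0.70 to 1.78. The median difference from control light was 0.33 for low R:FR, with a range from -0.11 to 0.50, and 0.33 for low blue light, with a range from -0.04 to 0.50. Medians over all probe sets lay at -0.004, -0.011 and 0.001 for the same contrasts. Most members lay above control light in each single treatment as well, by less than the limit of the rule. By array, the median over members was 0.97, 0.79 and 0.76 in combined treatment, 0.29, 0.33 and 0.19 in low R:FR, and 0.41, 0.12 and 0.41 in low blue light. It was 0.09, -0.02 and -0.06 on the control arrays. Combined replicate 1 carried the highest of the 3 combined values in 36 of the 73 members, and low blue replicate 2 stood below the other low blue arrays.

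**Figure D1:**
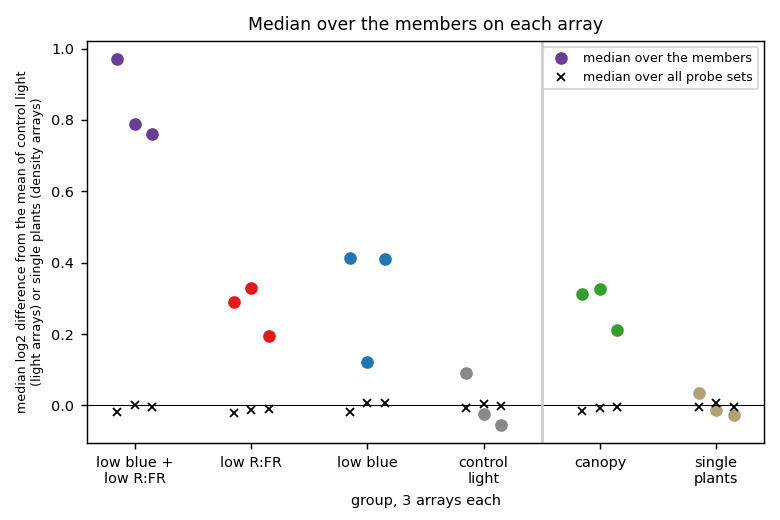
Median over the 73 members (circles) and over all probe sets (crosses) of the log2 difference from the mean of control light, for the light arrays, or of single plants, for the density arrays, with 3 arrays per group. The combined arrays lie at 0.76 to 0.97, low R:FR and low blue arrays at 0.12 to 0.41, and canopy arrays at 0.21 to 0.33, while medians over all probe sets stay near 0.

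The working name of the set, raised only by both cues together, describes some members more closely than others. The counts below only describe the set, since all differences are taken from the control mean by which the members were chosen. The differences of low R:FR and low blue from control light, added up, came to 50% or more of the combined difference in 51 of 73 members. They came to between 25% and 50% in 18 members and to under 25% in 4. In 23 members both single cues lay 0.3 or more above control light, and in 6 both lay within 0.2 of it. The mean in low R:FR was below control light in 3 members and that in low blue light in 2.

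Array by array, all low R:FR arrays lay above all control arrays in 24 members, against 7.58% of all probe sets. All low blue arrays lay above all control arrays in 19, against 6.27% of all probe sets. In 33 members at least 1 single cue was separated from control light in this way. All combined arrays lay above all low R:FR arrays in 56 members (7.89% of all probe sets) and above all low blue arrays in 45 (7.06%). In 42 members the combined arrays lay above every other light array, and 18 of these have a named gene. In 14 members the combined arrays overlapped both single cues. These counts rest on the arrays that chose the members, and the rule itself placed all combined arrays above control. No share of all probe sets was taken for the counts of 33, 42 and 14, which only describe the set.

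The combined difference exceeded the sum of the single-cue differences in 65 members and fell short of it in 8. The median excess was 0.34, and it ran from -0.17 to 1.22. Without low blue replicate 2 the median excess of the same members was 0.20. The median sum was 0.58. Among all 351 probe sets that were higher in combined treatment by 0.7 without overlap, 274 were also 0.5 or more above control light in a single cue, and the median excess over the 351 was 0.03. A limit on the single cues raises this excess by construction.

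**Figure D2:**
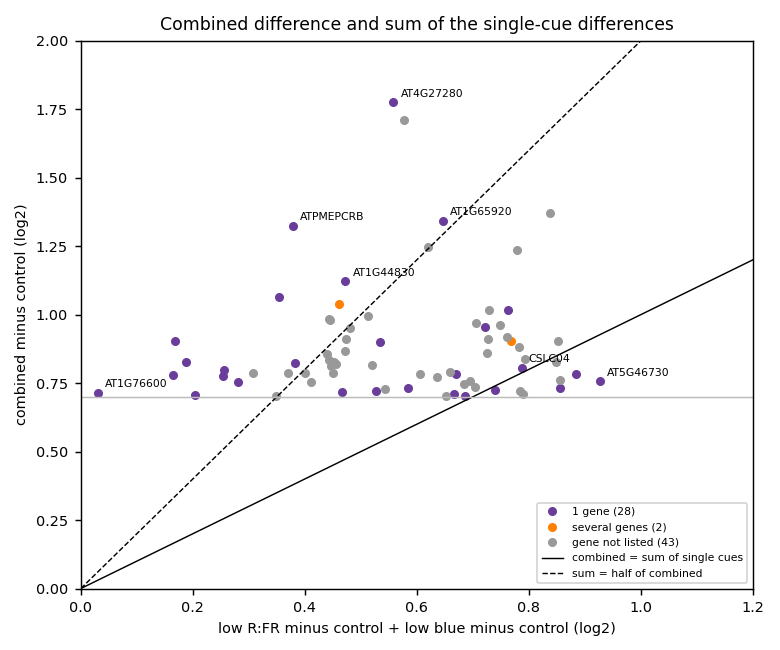
Combined minus control difference (log2) of each member against the sum of its low R:FR and low blue differences from control light (log2). Points above the solid line exceed the sum (65 of 73), points above the dashed line have a sum under 50% of the combined difference, and the grey line marks the limit of 0.7. AT4G27280 lies farthest above the solid line and AT5G46730 lies below it.

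**Figure D3:**
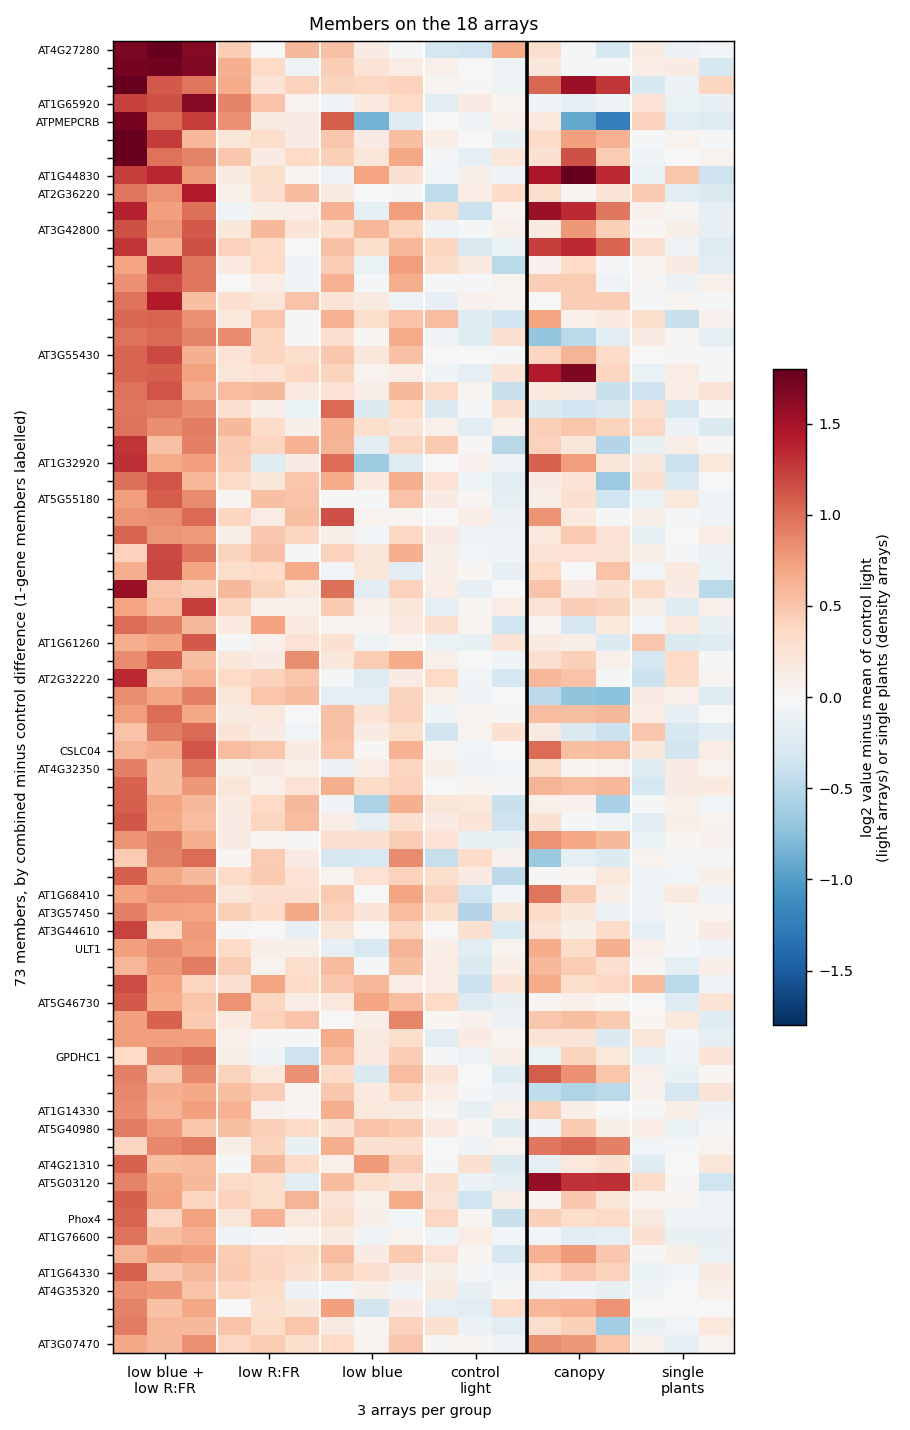
Log2 value of each of the 73 members on each of the 18 arrays minus the mean of control light (light arrays) or of single plants (density arrays), ordered by the combined difference. Values beyond the ends of the scale take its end colour, members with 1 listed gene are labelled, the 3 columns on the left hold the combined arrays, and the canopy columns are dark in some rows only.

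Of the 12 members with a combined difference of 1 or more, 6 have a named gene. Among genes of signalling, AT4G27280, which encodes an EF-hand calcium-binding protein, had the largest difference of the set. It measured 6.03, 6.33 and 5.99 in combined treatment and 4.03, 3.99 and 5.02 in control light, a difference of 1.78 or 3.42-fold. Low R:FR arrays lay at 4.78, 4.35 and 4.93 and low blue arrays at 4.87, 4.49 and 4.32. Every combined array was well above the other 9 light arrays, and control replicate 3 was the highest of those 9. The combined difference exceeded the sum of both cues by 1.22, the largest excess of the set.

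AT1G65920, a protein with RCC1 repeats and a FYVE zinc finger, had levels of 3.11, 3.04 and 3.53 in combined treatment, against 1.69, 2.03 and 1.93 in control light. Its low R:FR arrays spread over 2.78, 2.40 and 1.95, and its low blue arrays over 1.82, 2.05 and 2.24. Its mean in low R:FR was 0.49 above control light, just inside the limit, while low blue was 0.15 above it. The combined arrays stayed above all others.

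The 2C-type protein phosphatase gene AT1G68410 averaged 4.24 ± 0.06 in combined treatment and 3.46 ± 0.39 in control light. Its single-cue means of 3.73 ± 0.05 in low R:FR and 3.85 ± 0.36 in low blue light lay between them. AT3G44610, a kinase gene of the AGC class, measured 2.95, 2.09 and 2.51 in combined treatment and 1.73, 2.03 and 1.46 in control light. Its lowest combined array lay just above its highest control array and overlapped the low blue arrays, and low R:FR was not above control light (-0.04). The kelch-repeat F-box gene AT1G14330 averaged 3.20 ± 0.12 in combined treatment and 2.47 ± 0.12 in control light, with 0.25 for low R:FR and 0.33 for low blue light above control.

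Several named members act on the cell wall, a grouping made with the members in view. ATPMEPCRB (AT4G02330), a pectin methylesterase, measured 6.65, 5.93 and 6.16 in combined treatment and 4.91, 4.84 and 5.01 in control light, a difference of 1.32. Low R:FR arrays read 5.74, 5.08 and 5.07 and low blue arrays 6.005, 4.07 and 4.70. The low blue mean matched control light (0.01 above it), but its 3 arrays spread from below every control array to above 1 combined array. The excess of the combined difference over the sum was 0.95.

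CSLC04, a cellulose synthase-like enzyme that makes the glucan backbone of xyloglucan, behaved otherwise among the light groups. Its levels were 7.08, 7.15 and 7.60 in combined treatment, 7.03, 6.97 and 6.63 in low R:FR, 6.97, 6.49 and 7.09 in low blue light and 6.51, 6.43 and 6.47 in control light. All low R:FR arrays lay above control light, and low blue replicate 2 fell within the control range. The lowest combined array lay just below the highest low blue array. The combined difference of 0.81 was about the sum of the low R:FR difference of 0.41 and the low blue difference of 0.38, with an excess of 0.02.

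AT3G55430 and AT5G55180 encode glycosyl hydrolases of the plant beta-glucanase family. AT3G55430 measured 6.35, 6.49 and 5.94 in combined treatment and 5.31, 5.32 and 5.29 in control light, where its 3 arrays were tightly grouped. It lay at 5.62 ± 0.07 in low R:FR and 5.71 ± 0.18 in low blue light, with every array of both above control light and below the combined arrays. AT5G55180 averaged 4.52 ± 0.18 in combined treatment and 3.62 ± 0.16 in control light, with single-cue differences of 0.36 in low R:FR and 0.17 in low blue light. The glycine-rich protein gene AT5G46730 had the lowest excess of the set (-0.17), since low R:FR and low blue light were 0.44 and 0.48 above control light and combined treatment 0.76.

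AT1G44830, a transcription factor gene of the AP2/ERF family, measured 2.98, 3.11 and 2.50 in combined treatment, 1.90, 2.06 and 1.81 in low R:FR, 1.64, 2.45 and 2.02 in low blue light and 1.70, 1.85 and 1.68 in control light. The combined arrays lay above every other light array, and control arrays lay near the floor, so its difference of 1.12 is open to compression. ULT1, a SAND-domain regulator of shoot and floral meristems, measured 2.86, 2.95 and 2.87 in combined treatment and 2.24, 1.93 and 2.19 in control light. Its low R:FR arrays lay at 2.47, 2.24 and 2.22. Its low blue arrays read 1.97, 1.84 and 2.74, so that low blue replicate 3 alone came close to the combined level.

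GPDHC1, a cytosolic glycerol-3-phosphate dehydrogenase that links glycolysis to glycerol lipid synthesis, showed opposite signs in the single cues. It measured 3.37, 3.92 and 4.00 in combined treatment, 3.11, 2.95 and 2.63 in low R:FR, 3.57, 3.18 and 3.46 in low blue light and 2.98, 2.92 and 3.13 in control light. The low R:FR mean was below control light (-0.11) and the low blue mean 0.39 above it, with every low blue array above every control array. AT2G32220, of the ribosomal protein L27e family, had the reverse order, with 0.42 in low R:FR and -0.04 in low blue light. Its combined arrays of 4.87, 4.02 and 4.15 and control arrays of 3.88, 3.47 and 3.22 differed by 0.82, and combined replicate 1 was set apart from the other 2. Phox4, a protein with PB1 and tetratricopeptide domains, averaged 2.56 ± 0.34 in combined treatment and 1.84 ± 0.39 in control light, with overlap between combined and low R:FR arrays.

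A further set of named members is given by locus with no role stated. AT2G36220 measured 2.89, 2.74 and 3.35 in combined treatment and 1.46, 2.05 and 2.26 in control light, a difference of 1.07, while low R:FR was 0.32 and low blue light 0.04 above control light. AT3G42800 measured 2.59, 2.24 and 2.55 in combined treatment and 1.37, 1.42 and 1.53 in control light, near the floor, and each single cue had all arrays above control light. AT1G32920 had a combined difference of 0.90 while low R:FR was 0.12 and low blue light 0.04 above control, and its low blue arrays spread over 4.42, 2.77 and 3.17. The low blue arrays of AT1G32920 lay on both sides of its control arrays, while those of AT2G36220 lay within the range of its control arrays.

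AT1G61260 had levels of 2.73, 2.79 and 3.17 in combined treatment and 1.96, 1.94 and 2.31 in control light, with 0.11 in low R:FR and 0.08 in low blue light above control. AT4G32350 averaged 2.63 ± 0.23 in combined treatment and 1.83 ± 0.09 in control light, with 0.11 and 0.14 for low R:FR and low blue light. In AT1G76600, which was picked out after its values were seen, the single cues added up to 0.03, the smallest sum of the set. It measured 2.89, 2.46 and 2.55 in combined treatment, 1.82, 1.89 and 1.97 in low R:FR, 2.08, 1.86 and 1.98 in low blue light and 1.84, 2.05 and 1.87 in control light. With AT1G32920 and ULT1, these are the 5 named genes among the 6 members whose single-cue means both lay within 0.2 of control light, which come nearest to the working name of the set. AT3G57450 lay 0.48 in low R:FR, 0.40 in low blue light and 0.78 in combined treatment above control light. Its control arrays read 5.64, 4.80 and 5.53, and without control replicate 2, the lowest, the combined difference was 0.52.

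The 2 remaining genes of the naming rule were AT5G03120 and AT3G07470. AT5G03120 measured 6.68, 6.49 and 6.37 in combined treatment, 6.14, 6.11 and 5.60 in low R:FR, 6.36, 6.11 and 6.02 in low blue light and 6.08, 5.68 and 5.62 in control light. Its combined arrays lay just above the others, and the spread of low R:FR arrays overlapped that of control light. AT3G07470 measured 7.92, 7.80 and 8.04 in combined treatment, 7.59, 7.68 and 7.54 in low R:FR, 7.58, 7.28 and 7.71 in low blue light and 7.24, 7.26 and 7.15 in control light. Its 4 groups were well above the floor, and every array of each single cue lay above control light and below every combined array. The combined difference exceeded the sum of the single cues by 0.02. The other 4 members with 1 gene, AT5G40980, AT4G21310, AT1G64330 and AT4G35320, are named to complete the set and had combined differences of 0.71 to 0.73. Among members with no listed gene, the probe set 254120_at had the largest combined difference, 1.71, with 3.47, 3.48 and 3.41 in combined treatment and 1.83, 1.75 and 1.65 in control light.

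**Figure D4:**
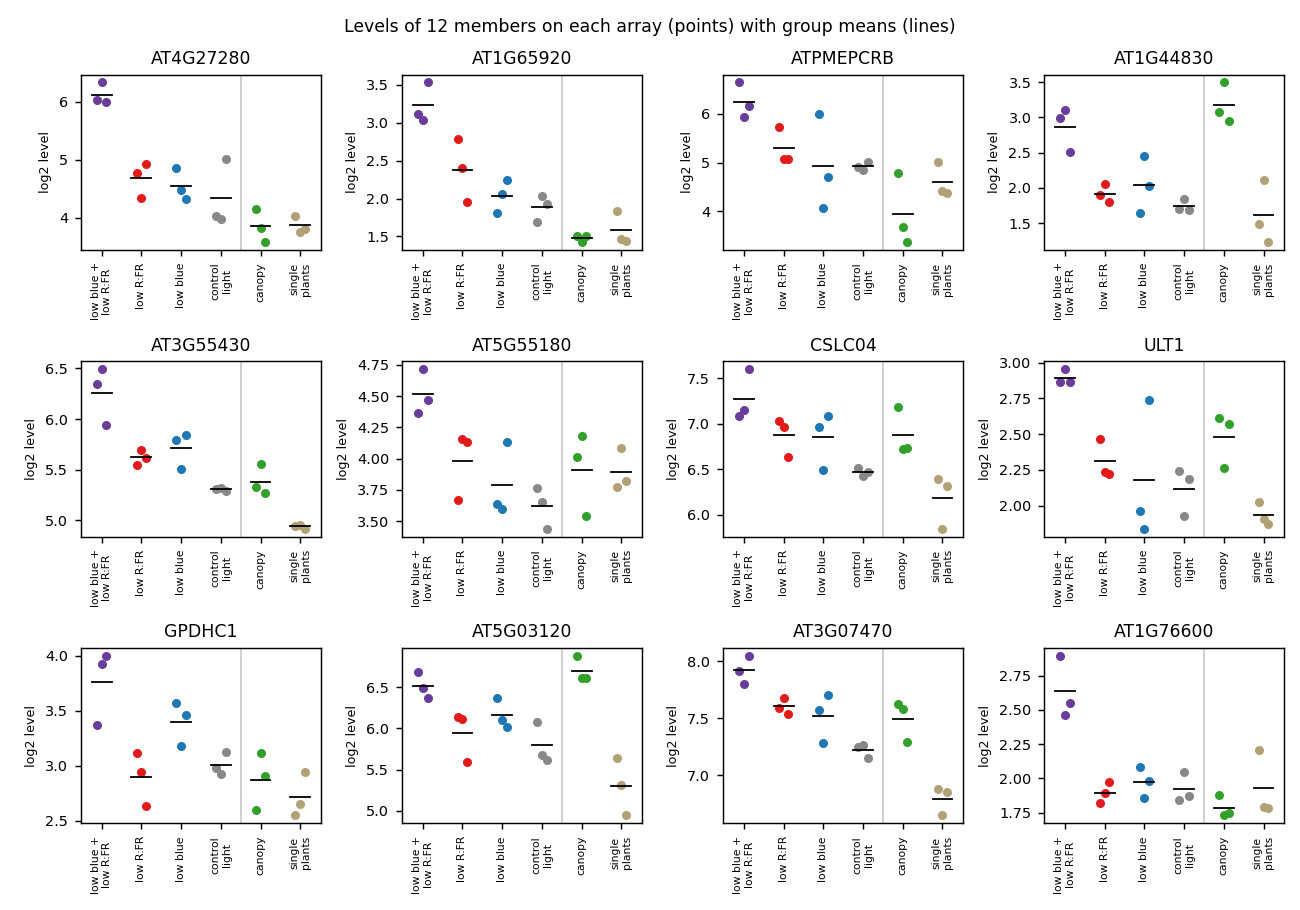
Log2 level of 12 named members on each array (points) with group means (lines), with light groups left and density groups right of the grey line. All members shown except ATPMEPCRB, CSLC04 and GPDHC1 have all combined points above every other light point. Single-cue means lie between those of combined treatment and control light in CSLC04 and AT3G07470, among others. AT1G44830, AT3G55430, CSLC04, ULT1, AT5G03120 and AT3G07470 have all canopy points above all single plant points.

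At the limit of 0.7, the nearest members were AT3G07470 at 0.702 and the probe sets 266297_at and 259012_at at 0.703. The nearest non-members were 245090_at at 0.699, 263128_at at 0.696 and AT5G41400 at 0.690. At the limit of 0.5 for a single cue, the nearest members had 0.499 (257714_at), 0.496 (255433_at) and 0.492 (AT1G65920). The nearest non-members had 0.501 (255507_at), 0.502 (245828_at) and 0.502 (AT1G30820). Neighbours across each limit differ by far less than the spread between arrays. HAT2, EXLA3, XTH18 and WES1 met the numeric limits and were left out by name, with combined differences of 1.26, 0.87, 1.13 and 0.84.

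The median level of the members in control light was 3.40, against 1.65 over all probe sets and 3.46 over the 351 that were higher in combined treatment. Of the 73, 20 had a control mean under 2 and 6 under 1.5, where differences are compressed. The share with no listed gene was 58.9%, against 38.4% of all probe sets. Of the named members, 2 had no chromosome in the gene table, and the others numbered 7, 3, 5, 7 and 4 on chromosomes 1 to 5. These are 25, 10.7, 17.9, 25 and 14.3% of the 28, against 25.5, 16.3, 20.3, 14.5 and 22.3% of all probe sets with 1 gene.

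In the canopy, 14 of the 73 members were higher than in single plants at a limma adjusted p under 0.05, and 1 was lower. The 14 are 19.2% of the set, against 2.11% of all probe sets called higher. These shares are not matched for level, since 4.11% of the members and 46.8% of all probe sets had a mean under 1.5 over the 18 arrays. The single lower call compares with 2.15% of all probe sets. The other 58 were not called. At an unadjusted limma p under 0.05, 30 members passed in either direction, and the share of all probe sets was not counted there. The canopy difference was above 0 in 58 members and below 0 in 15. Its median was 0.28, against -0.005 over all probe sets. By array the median over the members was 0.31, 0.33 and 0.21 in the canopy and 0.04, -0.01 and -0.03 in single plants. All canopy arrays lay above all single plant arrays in 29 members, against 9.30% of all probe sets, and all below them in 4, against 9.98%.

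Of the 274 probe sets that were higher in combined treatment and also in a single cue, 91 or 33.2% were called higher in the canopy and 6 or 2.19% lower. The difference between these shares was not tested, and no canopy response particular to the 73 is claimed. Over the 73 members, the canopy and combined differences had a Pearson correlation of 0.02 and a Spearman correlation of -0.02, against 0.35 and 0.19 over all probe sets. The rule narrows the range of the combined difference in the set, and probe sets on the same arrays are not independent.

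Of the 28 named members, 4 were called higher in the canopy and none lower. AT1G44830, the AP2/ERF gene, measured 3.08, 3.49 and 2.95 in the canopy and 1.49, 2.11 and 1.24 in single plants. The difference was 1.57 ± 0.22, or 2.96-fold (limma adjusted p = 0.00048), and the lowest canopy array lay well above the highest single plant array. AT5G03120 measured 6.87, 6.61 and 6.61 in the canopy and 5.65, 5.32 and 4.95 in single plants. Its difference of 1.40 ± 0.18 (limma adjusted p = 0.00023) was larger than its combined difference of 0.72 from control light, though the experiments differ in plant age and controls.

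AT3G07470 measured 7.62, 7.58 and 7.29 in the canopy and 6.88, 6.65 and 6.85 in single plants, a difference of 0.70 ± 0.12 (limma adjusted p = 0.0018). CSLC04, of xyloglucan synthesis, measured 7.19, 6.73 and 6.73 in the canopy and 6.39, 5.85 and 6.31 in single plants, a difference of 0.70 ± 0.19 (limma adjusted p = 0.045). Both had all canopy arrays above all single plant arrays. The first 3 calls held in each of 12 other settings, while that of CSLC04 ended in 6 of them. These were the density arrays alone and the fits without canopy replicate 1, 2 or 3 or without single plants replicate 2 or 3, with a highest limma adjusted p of 0.21 without canopy replicate 1.

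The other 10 higher calls were 9 probe sets with no listed gene and 1 with several. The probe set 257506_at measured 2.83, 3.34 and 3.08 in the canopy and 1.504, 1.69 and 2.18 in single plants, and 264209_at measured 4.22, 4.32 and 4.02 in the canopy and 3.28, 2.91 and 2.74 in single plants. Their differences were 1.29 ± 0.23 (limma adjusted p = 0.0028) and 1.21 ± 0.19 (limma adjusted p = 0.0012). The member called lower, 259987_at, measured 4.29, 4.04 and 4.03 in the canopy and 4.91, 4.85 and 4.53 in single plants, a difference of -0.64 ± 0.15 (limma adjusted p = 0.019). This call was lost in 4 of 12 other settings, without canopy replicate 2 or 3 and without single plants replicate 1 or 2, with a highest limma adjusted p of 0.085.

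The named genes with the 3 largest combined differences were not called in the canopy. AT4G27280 measured 4.16, 3.83 and 3.59 in the canopy and 4.04, 3.76 and 3.82 in single plants, a difference of -0.01 ± 0.24 (limma adjusted p = 0.99). AT1G65920 differed by -0.10 ± 0.18 (limma adjusted p = 0.89), at levels near the floor. ATPMEPCRB, the pectin methylesterase, measured 4.79, 3.68 and 3.37 in the canopy and 5.02, 4.42 and 4.37 in single plants. Its groups overlapped, and the difference of -0.66 ± 0.40 did not pass (limma adjusted p = 0.53). AT2G36220 differed by 0.20 ± 0.22 (limma adjusted p = 0.79) and AT5G55180 by 0.02 ± 0.18 (limma adjusted p = 0.99). None of these values shows that the gene did not respond to crowding.

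Another 6 named members missed the threshold with all canopy arrays above all single plant arrays. The glycosyl hydrolase gene AT3G55430 measured 5.33, 5.55 and 5.27 in the canopy and 4.95, 4.96 and 4.92 in single plants, a difference of 0.44 ± 0.13 (limma adjusted p = 0.059). ULT1 measured 2.61, 2.26 and 2.57 in the canopy and 2.02, 1.91 and 1.87 in single plants, a difference of 0.54 ± 0.18 (limma adjusted p = 0.11). AT3G42800 measured 1.39, 2.01 and 1.655 in the canopy and 1.26, 1.33 and 1.08 in single plants, a difference of 0.46 ± 0.15 (limma adjusted p = 0.11). Each of these 3 passed in 1 of the 12 other settings. AT1G32920 differed by 0.68 ± 0.33 (limma adjusted p = 0.37), Phox4 by 0.36 ± 0.19 (limma adjusted p = 0.41) and AT1G64330, a myosin heavy chain-related gene, by 0.42 ± 0.13 (limma adjusted p = 0.096). GPDHC1, whose groups overlapped, differed by 0.16 ± 0.18 (limma adjusted p = 0.80).

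PYK10, a root β-glucosidase gene on the marker lists, was higher in the canopy by 1.69 ± 0.45 (limma adjusted p = 0.041), at 2.85 to 3.69 on canopy arrays and 0.69 to 2.64 on single plant arrays. It was the 1 named of 4 root markers, none of the other 6 named markers was called, and its part in the members' canopy differences was not tested.

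**Figure D5:**
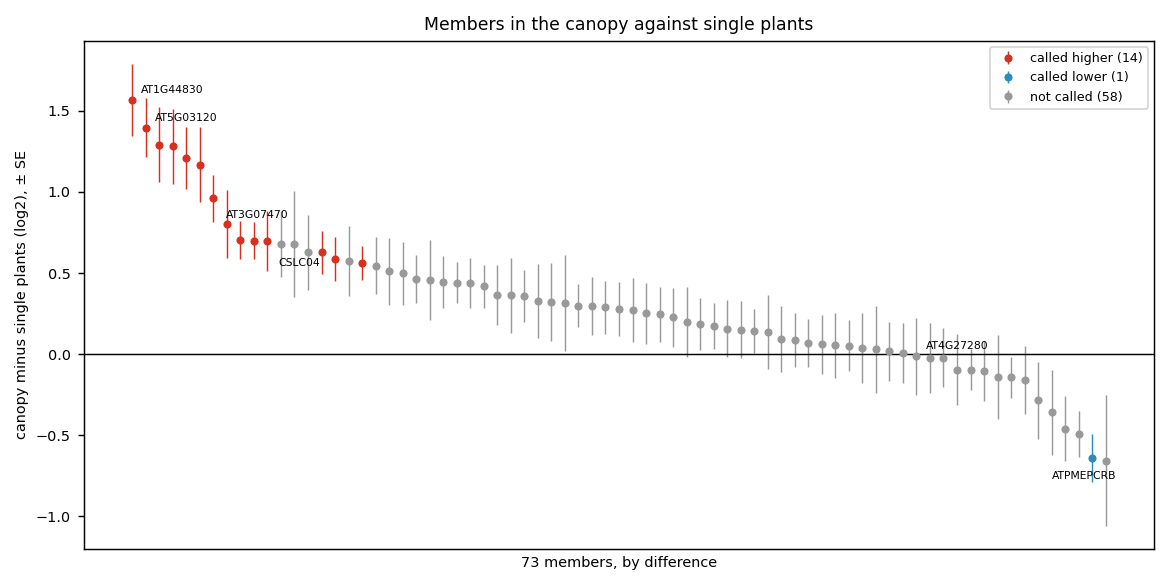
Canopy minus single plants difference (log2) of each of the 73 members with its limma standard error, ordered by size, with calls at a limma adjusted p under 0.05. The 14 members called higher lie between 0.56 and 1.57, and the member called lower lies at -0.64, beside ATPMEPCRB, which has a wider error and was not called.

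No member belongs to the lists of genes of the known shade and growth pathways, which the annotation named only in small part. This absence is partly set by the rule. HAT2 and WES1 are on these lists and met the numeric limits but were left out by name. IAA29, EXO and AT1G69570, also listed and barred by name, failed the single-cue limit of 0.5, so the numeric limits alone would have left them out. IAA29 lay 1.295 above control light in low R:FR, and EXO lay 1.59 above it in low blue light. AT1G69570 lay 1.34 above control light in low R:FR and 0.99 in low blue light. Of the shade and photoreceptor signalling list, 4 of 28 were named. HAT2, a homeodomain transcription factor gene, was higher in combined treatment by 1.26 ± 0.12. The combined differences of listed genes are descriptions, as for the members. In the canopy AT3G44450 (BIC2), an inhibitor of cryptochromes, was lower, with a difference of -0.93 ± 0.19 (limma adjusted p = 0.0075). Of auxin genes, 6 of 30 were named, of which 2 were called in the canopy. The auxin response repressor gene IAA29 was higher in combined treatment by 2.19 ± 0.21 and in the canopy by 1.14 ± 0.21. WES1, of an auxin-conjugating enzyme, was higher in combined treatment by 0.84 ± 0.15 and in the canopy by 0.93 ± 0.15. Of gibberellin genes 3 of 18 were named and none was called in the canopy. The receptor gene GID1A was lower in combined treatment, with a difference of -0.66 ± 0.15. The 1 named of 21 brassinosteroid genes, EXO, was higher in combined treatment by 2.13 ± 0.46 and not called in the canopy.

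Of 19 genes of cellulose synthesis and wall extension, 5 were named. THE1, a receptor kinase that monitors the cell wall, was higher in combined treatment by 0.75 ± 0.18 and in the canopy by 1.02 ± 0.18 (limma adjusted p = 0.0027). Its means in low R:FR and low blue light lay 0.16 and 0.503 above control light, the latter just past the limit of 0.5. COB, TUA6, TUB6 and FER were not called in the canopy. Of the 2 named of 17 clock genes, AT1G69570 (CDF5) was higher in combined treatment by 2.44 ± 0.16 and in the canopy by 1.31 ± 0.16, and GI differed by -0.95 ± 0.14 in the canopy. AKINBETA1, 1 of 2 named of 19 low energy genes, was higher in the canopy by 1.69 ± 0.22. The dehydrin genes COR47 and LTI30, of 4 named of 17 water deficit genes, were higher in the canopy by 1.09 ± 0.14 and 1.54 ± 0.18. For AKINBETA1, COR47 and LTI30 the differences of combined from control light were 0.001, 0.42 and -0.15. The named genes of the ethylene (1 of 15), jasmonate and salicylate (2 of 19) and flavonoid (1 of 12) lists were not called in the canopy, and no cell division gene was named.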

How the data were processed

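Transcripts of petioles were measured on Affymetrix ATH1 arrays in 6 groups of 3. The authors deposited expression values made with RMA, per the submitters' processing notes. Their base is not stated. The deposited values were taken as log2, since RMA usually gives log2, and every difference and fold rests on this; array medians near 1.6 are low for RMA. For its software and version, and for a genome build, the entry is: not given in the sources used here. Bacterial control transcripts bioC, bioD and cre stood 2.51, 4.55 and 6.61 above bioB, nearer to nominal steps in log2 (1.74, 4.06 and 6.06) than in natural log (1.2, 2.81 and 4.2). The lowest value was 0.441 and the highest 11.4; for 46.8% of probe sets the mean was under 1.5, where differences are compressed. After 64 control probe sets were set aside, 22746 remained.

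Genes came from the platform's table, with names updated through RefSeq's gene table (TAIR10.1); 13513 probe sets had 1 gene, 503 several and 8730 none listed. Roles of genes are background knowledge. No named member had another probe set with 1 gene. No sequences or coordinates were used here.

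Membership followed group means of the 12 light arrays. The linear model of limma 3.58.1 (R 4.3.3) gave each of the 6 groups its own mean on the 18 arrays, without covariates, and eBayes moderated the variances (residual degrees of freedom 12, prior 4.41). Two-sided p-values were adjusted with the Benjamini-Hochberg method across all 22746 probe sets. The fit was tested on simulated data. The members, gene lists, markers and tests were chosen with earlier results of these data known. Named members were those with the 20 largest combined differences among members of 1 gene, those called in the canopy and those with a symbol; AT1G76600, AT1G64330 and the probe sets without a gene were picked after their values were seen. Alternatives left out each array in turn and changed the limits, the normalization, the fit and the filter on low values. The number of arrays limits the precision.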

Additional observations from a re-analysis of the deposited data

How the results depend on the processing

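The number of members moved most with the limits: 118 with a rise of 0.6, 40 with 0.8, 42 with a single-cue limit of 0.4 and 123 with 0.6. Leaving out 1 light array gave 59 to 101, of which 45 to 71 were among the 73 over these settings, and leaving out control replicates 1 and 3 together gave 72 with 43 shared. Over the same leave-outs, for the 73 members, the median low R:FR difference ran from 0.259 (without control replicate 3) to 0.360, and the median excess of combined treatment over the sum of the single cues from 0.204 (without low blue replicate 2) to 0.365. In the canopy, the members called higher numbered 10 to 13 when 1 density array was left out and 14 to 16 otherwise, and the median difference ran from 0.239 to 0.329. The members called lower numbered 0 to 1 with 1 array left out, 2 with array weights and 2 with the replicate block. Same-numbered canopy and single plants arrays deviated together with correlations of 0.17, 0.33 and 0.06, and 4 of 6 arrays correlated best with their own number. For combined and control arrays the correlations were 0.28, 0.04 and 0.33. Whether the numbers pair the samples was not tested, and the main fit took no account of them. With the replicate block, 14 members were called higher. With the density arrays alone, whose spread leaves out the light arrays, 3 members lost a higher call and 3 gained it. Over all 73 members and the 12 settings, calls in the canopy were lost 23 times and gained 11 times. Among the 39 members followed singly (28 named and 11 called without 1 gene), 3 of the gains occurred. Among the named genes, CSLC04 lost its call in 6 of 12 settings; AT3G55430 passed with array weights, AT3G42800 without canopy replicate 1 and ULT1 with the density arrays alone. Of 252 combined differences of single named genes under other settings, 12 moved by at least the SD of the gene's 3 combined arrays. Leaving out 1 combined array cannot move a mean that far, and the limit ignores the spread of control arrays, so the count is no measure of stability. The difference of AT3G57450 was 0.52 without control replicate 2 and 1.31 without control replicates 1 and 3. Its SD was 0.11 in combined treatment and 0.46 in control light. AT3G44610 had 0.49 without control replicates 1 and 3. Genes near the floor of the arrays limit what can be measured, since differences there are compressed.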

Other observations

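The mirrored rule, with a fall of 0.7 or more in combined treatment, no overlap with control light and less than 0.5 below control light in each single cue, gave 37 probe sets, of which 15 have 1 listed gene. In the canopy 6 of the 37 were called lower, against 2.15% of all probe sets, and 2 higher, against 2.11%. CLE41, the peptide signal that holds back xylem formation beside the vascular cambium, measured 5.29, 5.01 and 5.16 in combined treatment and 5.97, 5.98 and 5.68 in control light. It measured 5.13, 5.36 and 5.27 in the canopy and 5.85, 5.98 and 6.15 in single plants, a difference of -0.74 ± 0.13 (limma adjusted p = 0.0027). AT3G19030 differed by -0.97 in combined treatment and by 1.31 ± 0.33 in the canopy (limma adjusted p = 0.032). GAMMA-VPE, a vacuolar processing enzyme, differed by -0.99 and SKP2A, an F-box protein of cell cycle control, by -0.79 in combined treatment, and neither was called in the canopy. The endoglucanase gene GH9C2 differed by -0.74 in combined treatment and by -0.32 ± 0.16 in the canopy (limma adjusted p = 0.38). AT5G05250, with the largest fall of the 15, differed by -1.23 in combined treatment. In low R:FR its mean lay 0.65 above control light, with all arrays above all control arrays. The mirrored rule sets no limit on a rise in a single cue, and the genes named here are only some of the 15. Values on the light arrays chose all of these genes and are a description.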
